A study of Mus musculus with 13 samples.

Results

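This account follows one microRNA, miR-155, through small RNA-seq of thymic invariant natural killer T (iNKT) cells from WT and *Tet2/3* DKO mice. Its members were found by name and not by any measured value. They are the row mmu-mir-155, 1 of 1127 precursor (hairpin) rows, and the rows that start with mmu-miR-155-, of which the mature table used here held 1 among 1297, the 5p arm mmu-miR-155-5p. The 3p arm was not analysed here. Both members had enough counts to be tested, which was the case for 350 hairpins and 401 mature miRNAs. In the hairpin table mir-155 was 1.61-fold higher in *Tet2/3* DKO iNKT cells, and this difference passed the test. Mature miR-155-5p was 1.38-fold higher, and this difference did not pass it. One WT mouse had a level of both as high as that of the *Tet2/3* DKO mice, and both fold changes were larger without it. For miR-155-5p other WT mice also lay within the range of the *Tet2/3* DKO mice.

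miR-155 is processed from the noncoding transcript *Mir155hg*, also called *Bic*, which lymphocytes and myeloid cells transcribe after signals from antigen receptors, Toll-like receptors and cytokines that act through NF-κB and AP-1. It represses mRNAs of signalling and transcription factors, among them *Socs1* (a brake on cytokine signalling), *Inpp5d* (the phosphatase SHIP1), *Maf* and *Ets1*. It is known in T cells as a microRNA of effector and IL-17-producing responses, and in iNKT cells a tight control of its level has been linked to maturation in the thymus. iNKT cells carry an invariant TCR, respond to lipids, and include an IL-17-producing subset called NKT17.

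The hairpin and its arms are shown because the 2 tables count different parts of this one molecule. The sequences and positions were taken from RefSeq on GRCm38.p6, where the RefSeq table gives the hairpin and both arms. In the hairpin line the capitals mark the 5p arm (bases 4 to 26) and the 3p arm (bases 43 to 63). In the lines of the arms they mark the seed, bases 2 to 8, the part that pairs with target mRNAs.
mir-155 hairpin: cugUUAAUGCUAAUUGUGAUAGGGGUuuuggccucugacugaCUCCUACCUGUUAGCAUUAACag
miR-155-5p: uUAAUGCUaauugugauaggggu
miR-155-3p: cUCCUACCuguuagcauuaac
None of the other mature miRNAs among the 1679 in the RefSeq table shared the seed of either arm (0 for each), so neither has a seed family in that table.

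The hairpin of 65 bases lies on the plus strand of chromosome 16 from 84714140 to 84714204, with the 5p arm from 84714143 to 84714165. In the GENCODE annotation of the same build it lies within exon 2 of *Mir155hg*, a long noncoding RNA gene from 84703167 to 84715245. That exon runs from 84714053 to 84715245 in both annotated transcripts, and the hairpin starts 87 bases after its start. The nearest other hairpins of the RefSeq table on chromosome 16 are Mir6367, 6.81 Mb away, and Mirlet7c-1, 7.11 Mb away on the other side. miR-155 is therefore not part of a cluster of miRNAs in this annotation.

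Each library held the small RNA of thymic iNKT cells that had been FACS-sorted from a single mouse, 6 of them WT and 7 *Tet2/3* DKO, at an age of 21 to 25 days. WT mice were C57BL/6. *Tet2/3* DKO mice were Tet2-/- Tet3flx/flx CD4 cre, so that *Tet2* was lost in every cell of the animal and *Tet3* in T cells, from the stage at which the CD4 promoter drives the recombinase. Mice of both sexes entered the study, and sex was not a term in any fit here. In the hairpin table the WT libraries held between 469117 and 1110226 counts and the *Tet2/3* DKO libraries between 728653 and 1910526. In the mature table the totals were between 1110852 and 2582057 and between 1837631 and 4361963. WT libraries were shallower in the median, at 929254 against 1578644 hairpin counts, and the ranges overlapped. Levels are CPM, counts per 1000000 counts of the library after scaling by edgeR's TMM factors, and every fold change is thus set against the bulk of the miRNAs measured alongside.

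In the WT mice the hairpin stood at 122, 146, 300.2, 123, 119 and 139.9 CPM in replicates 1 to 6, from 53 to 294 counts. In *Tet2/3* DKO mice it stood at 231, 200.4, 345, 342, 265, 232 and 176 CPM in replicates 1 to 7, from 149 to 723 counts. Thus 5 WT mice lay close together and below every *Tet2/3* DKO mouse, and WT replicate 3 lay above all *Tet2/3* DKO mice other than replicates 3 and 4. The group means were 158 ± 70.3 CPM (SD, n = 6) in WT and 256 ± 66.1 CPM (SD, n = 7) in *Tet2/3* DKO. Without WT replicate 3 the WT mean was 130.1 ± 12.2 CPM (SD, n = 5).

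Mature miR-155-5p stood at 47.9, 89.9, 137, 60.0, 74.0 and 47.7 CPM in the WT mice, from 51 to 334 counts. In the *Tet2/3* DKO mice it stood at 89.6, 88.9, 173, 134, 100.7, 78.4 and 73.6 CPM, from 164 to 636 counts. The genotypes overlapped more than for the hairpin, since 3 of the WT mice were below every *Tet2/3* DKO mouse and 1 of the *Tet2/3* DKO mice was above every WT mouse. The means were 76.0 ± 33.9 CPM (SD, n = 6) in WT and 105 ± 35.7 CPM (SD, n = 7) in *Tet2/3* DKO. Without WT replicate 3 the WT mean was 63.9 ± 18.1 CPM (SD, n = 5), and 3 of the *Tet2/3* DKO mice were above the remaining WT mice.

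**Figure D1:**
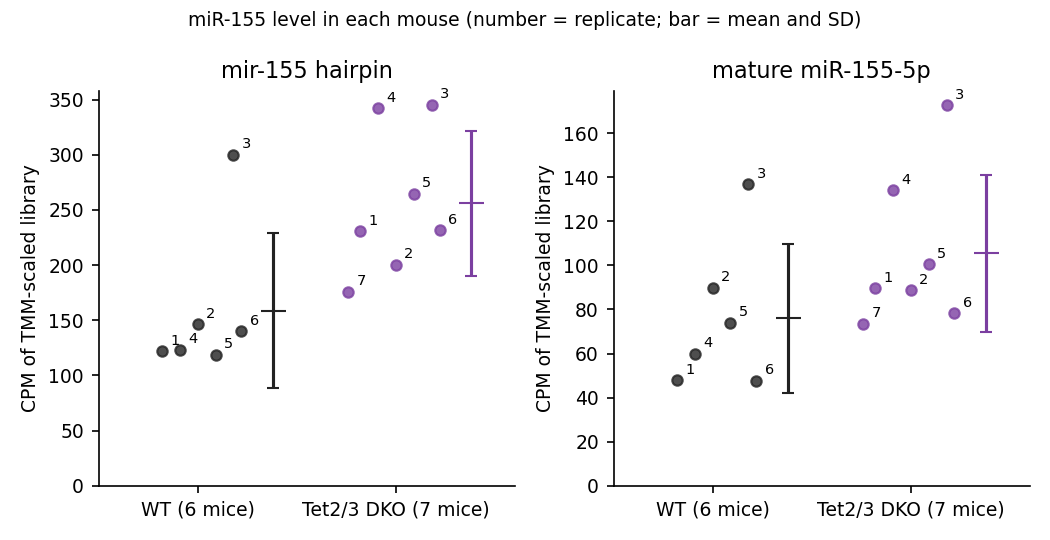
Level of the mir-155 hairpin (left) and of mature miR-155-5p (right) in CPM of the TMM-scaled library, 1 point per mouse with its replicate number, and mean ± SD beside the points. WT replicate 3, at 300.2 CPM for the hairpin and 137 CPM for the mature arm, sits among the *Tet2/3* DKO mice, and the other WT hairpin values lie between 119 and 146 CPM.

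The depth sets a limit for single mice. For the hairpin in WT replicate 1, the shallowest library, 53 counts gave a 95% exact binomial interval of 91.5 to 160 CPM. For WT replicate 3 it was 267 to 336 CPM, apart from the intervals of the other WT mice, the highest of which (WT replicate 2) ended at 182 CPM. For miR-155-5p the interval of WT replicate 3 (122 to 152 CPM) was likewise above that of WT replicate 2 (74.4 to 108 CPM), the next highest WT mouse. These intervals treat every read as an independent molecule and leave out the differences between mice. They are too narrow where several reads come from the same molecule.

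miR-155 was of middling abundance in these cells. Ranked by CPM from the highest, miR-155-5p was between place 145 and place 212 of the 401 tested mature miRNAs in WT mice and between 138 and 174 in *Tet2/3* DKO mice. The hairpin was between place 129 and place 190 of 350 in WT mice, and in *Tet2/3* DKO mice between 125 and 169. With all mice, it varied more between mice than most miRNAs of like level. The SD of log2 CPM between WT mice was 0.50 for the hairpin, against a median of 0.32 for the 20 hairpins nearest in level, of which 1 had a larger SD. For miR-155-5p it was 0.58 in WT against 0.36, and again 1 of the 20 had a larger SD. For the hairpin in WT this rested on WT replicate 3, without which its SD was 0.13. Without that mouse the SD of the arm was 0.39, still above the 0.36 of the miRNAs nearest in level. The SDs of the nearest miRNAs were taken with all WT mice and not again without that mouse. Between *Tet2/3* DKO mice the SDs were 0.37 for the hairpin and 0.44 for the arm, and 5 and 6 of the nearest 20 had a larger one.

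Is miR-155 changed by the loss of TET2 and TET3? In edgeR's quasi-likelihood test over all 350 hairpins, the log2 fold change of mir-155 was 0.68 (SE 0.225, 95% interval 0.21 to 1.16, adjusted p = 0.0141 after Benjamini-Hochberg adjustment). As a fold this was 1.61, with an interval of 1.16 to 2.23. Of the tested hairpins, 32.6% were called higher in *Tet2/3* DKO, 27.1% lower and 59.7% in either direction, so a call of this kind was common. The size was ordinary too, as 170 of the 350 hairpins (48.6%) had a larger absolute log2 fold change. The groups overlapped for mir-155, while they did not overlap for 32.0% of tested hairpins.

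For miR-155-5p the log2 fold change was 0.46 (SE 0.255, 95% interval -0.068 to 1.00, edgeR adjusted p = 0.129 over 401 mature miRNAs). Among mature miRNAs 28.2% were called higher and 55.6% were called in either direction, and the groups did not overlap for 27.2%. The interval runs from a fold of 0.954 to one of 2.00, so a rise of the size seen for the hairpin lies inside it. Both the hairpin and its arm thus had positive estimates, and the call differed.

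**Figure D2:**
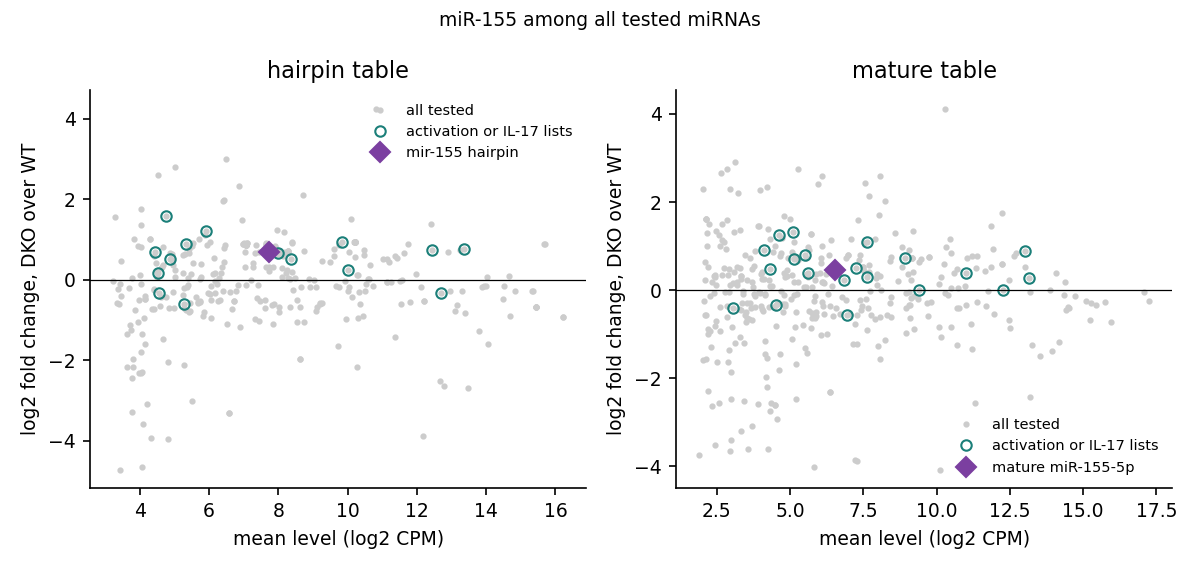
Log2 fold change of *Tet2/3* DKO over WT against mean log2 CPM for all tested hairpins (left, 350) and mature miRNAs (right, 401), with miR-155 as a diamond and the miRNAs of the activation and IL-17 lists as open circles. At 0.68 and 0.46, miR-155 lies inside the cloud of all tested miRNAs in both tables.

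These values shift with the scaling of the libraries together with all other miRNAs. With library size only, in place of TMM factors, the hairpin was at 1.01 (adjusted p = 0.00143, edgeR), and the median of all hairpins moved from 0.021 to 0.36. With upper-quartile scaling the hairpin was at 0.44 (adjusted p = 0.0957, edgeR) and the median at -0.22. Taken relative to the median hairpin, mir-155 was at 0.66 with TMM, 0.67 with RLE, 0.65 with library size only and 0.66 with upper-quartile scaling. miR-155-5p relative to the median mature miRNA was at 0.47, 0.47, 0.46 and 0.43 in the same order. A scaling shifts all miRNAs of a library together, so values relative to the median stay close by construction. With log2 library size as a covariate neither was called, the hairpin at 0.43 (adjusted p = 0.235, edgeR) and the arm at 0.25 (adjusted p = 0.571, edgeR), with wider intervals of -0.19 to 1.05 and -0.47 to 0.97. Depth and genotype go together in these libraries and are told apart only in part.

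Within genotypes the level was not seen to follow depth, over 4 relations. For the hairpin, Pearson's r with log2 total counts was 0.29 in WT (Spearman's rho -0.14, n = 6, exact permutation p = 0.693 and 0.803) and 0.37 in *Tet2/3* DKO (rho 0.29, n = 7, exact permutation p = 0.432 and 0.556). For the arm it was 0.48 in WT (rho 0.31, exact permutation p = 0.328 and 0.564) and 0.046 in *Tet2/3* DKO (rho 0.25, exact permutation p = 0.941 and 0.595). After Benjamini-Hochberg adjustment the lowest value was 0.865 for r and 0.793 for rho, both by exact permutation. Without the 2 libraries farthest from the median depth, r was 0.091, 0.39, 0.62 and 0.34 in the same order.

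For the hairpin, leaving out WT replicate 3 moved the difference more than leaving out any other mouse. Without it the log2 fold change of the hairpin was 1.02 (SE 0.177, adjusted p = 0.000107, edgeR), and all 7 *Tet2/3* DKO mice were above the other 5 WT mice. With that mouse left out, the groups did not overlap for 37.4% of tested hairpins. Mature miR-155-5p then stood 0.64 higher on the log2 scale (SE 0.229, edgeR adjusted p = 0.0219) and was past the threshold, in a table where the groups then did not overlap for 29.4% of tested miRNAs and did for miR-155-5p. Over the other 12 fits without a mouse the hairpin lay between 0.59 and 0.75 and the arm between 0.27 and 0.51, each with its call as before. The lowest values of the arm were 0.27 without *Tet2/3* DKO replicate 3 and 0.28 without WT replicate 6, each a larger shift from 0.46 than that without WT replicate 3. Leaving out that mouse was one of 13 such fits, and its level of miR-155 was known when it was singled out, so the call without it is given as a description.

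**Figure D3:**
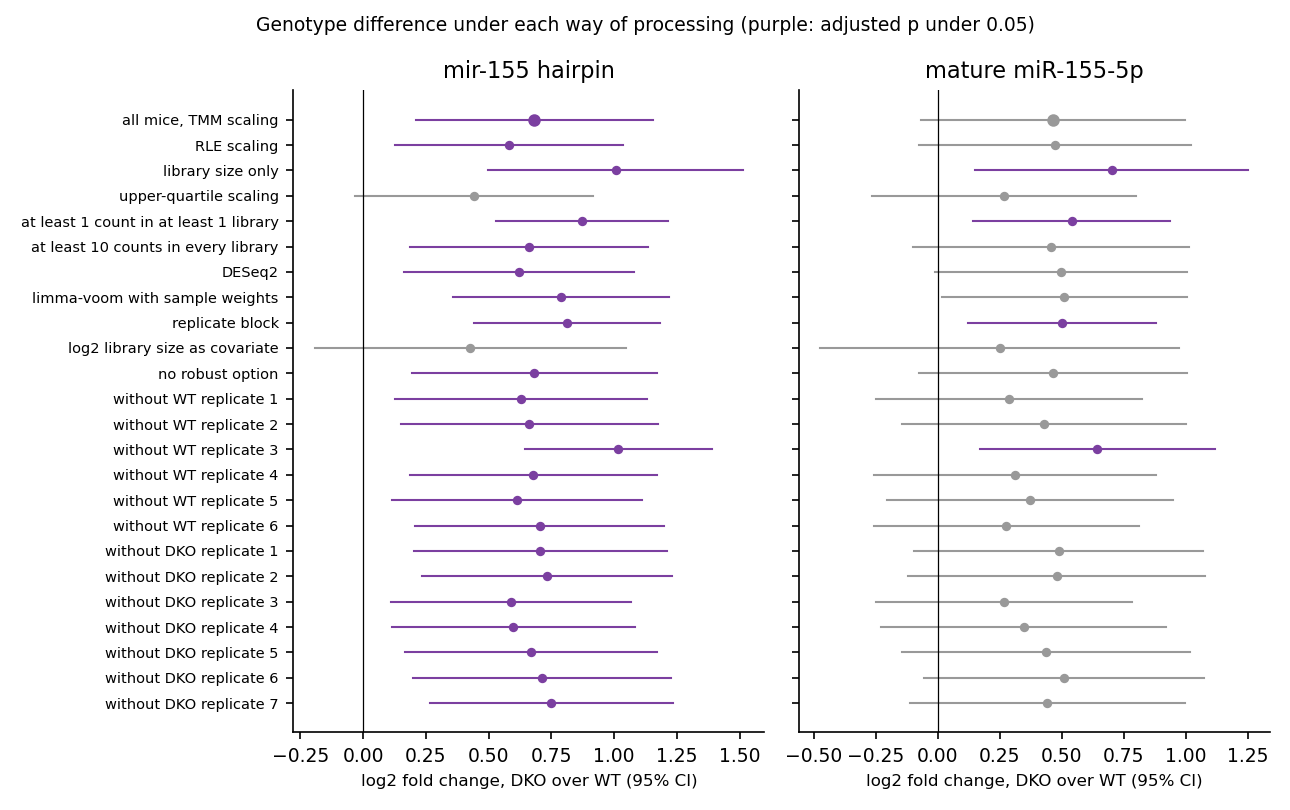
Log2 fold change of *Tet2/3* DKO over WT with its 95% interval for the mir-155 hairpin (left) and miR-155-5p (right), under the reported fit in the first line and under each alternative below it. Every estimate is above 0, the hairpin loses its call with upper-quartile scaling (0.44) and with library size as a covariate (0.43), and the arm gains one without WT replicate 3 (0.64) and under 3 other settings.

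Several other hairpins were high in the same WT mouse. In the hairpin table WT replicate 3 was 1.20 log2 units above the mean of the other WT mice for mir-155, and 14 of 350 hairpins had a larger gap (4.00%). For miR-155-5p the gap was 1.13, and 14 of 401 mature miRNAs had a larger one (3.49%). As a whole, the library did not stand apart, because its mean correlation with the other WT libraries was 0.969 for hairpins, within the 0.959 to 0.974 of the WT libraries.

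Among the markers of other cell types, mir-223, the defining miRNA of myeloid cells and the one hairpin of that list, was at 310 CPM in WT replicate 3, between 20.1 and 60.0 CPM in the other WT mice and between 0 and 19.2 CPM in the *Tet2/3* DKO mice. Its 3p arm was at 91.7 CPM in that mouse, between 2.31 and 16.9 CPM in the other WT mice and between 0.633 and 6.57 CPM in the *Tet2/3* DKO mice, while its 5p arm had at most 3 counts in any library. Activated myeloid cells also make miR-155. The sort took TCRβ+ cells that bound the lipid-loaded tetramer, a gate meant to leave out myeloid cells, and the part of such cells in the level of miR-155 in WT replicate 3 was not tested. Across all mice the fitted log2 fold change of mir-223 was -3.002 (SE 0.723, edgeR adjusted p = 0.00249), opposite in sign to that of mir-155, and without WT replicate 3 it was -1.86 (edgeR adjusted p = 0.00650).

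Of the other marker lists, that of endothelium was also highest in WT replicate 3. Summed hairpins of red cells (mir-144, mir-451a and mir-486a) ranged from 463 to 1239 CPM among WT mice and from 93.2 to 344 CPM among *Tet2/3* DKO mice, with 2 of 2 tested members lower (27.1% of all tested hairpins were), and WT replicate 3 was the fourth highest of the WT mice. Stroma (mir-143, mir-145a, both copies of mir-199a and mir-214) ranged from 49.4 to 138 CPM and from 8.90 to 30.7 CPM, with 3 of 3 tested members lower beside the same 27.1%, and WT replicate 3 was again the fourth. Of the mature arms, 3 of 3 tested for red cells and 4 of 4 for stroma were lower, against 27.4% of all tested mature miRNAs. Epithelial hairpins ranged from 170 to 291 and from 176 to 237 CPM with 0 of 4 tested members called, as with library size only. With RLE mir-200b was called lower (-0.62), beside 107 of 350 hairpins over all. With upper-quartile scaling mir-200a (-0.66) and mir-200b (-0.74) were called lower, beside 137 of 350 hairpins over all. Of the epithelial arms 4 of 6 tested were lower (miR-200a-3p, miR-200b-5p, miR-200c-3p and miR-141-3p), and the summed level of all arms of the list ranged from 1003 to 1506 CPM in WT mice and from 597 to 785 CPM in *Tet2/3* DKO mice, without overlap. The liver marker mir-122 was between 4.25 and 22.8 CPM in the WT mice, at 7.15 CPM in WT replicate 3, and at most 2.99 CPM in any *Tet2/3* DKO mouse, too low to be tested. Its arm miR-122-5p was between 46.9 and 883 CPM in WT and between 3.16 and 49.3 CPM in *Tet2/3* DKO, and was called lower (log2 fold change -3.87, edgeR adjusted p = 0.00625). The endothelial marker mir-126a was highest in WT replicate 3, at 235 CPM against at most 152 CPM in the other WT mice, and was not called between genotypes (log2 fold change -0.13, 0.20 with library size only and 0.13 without WT replicate 3). Its arm miR-126a-3p was called higher (0.69, edgeR adjusted p = 0.00249), as it was under the 4 scalings. The lymphoid hairpins mir-142a, mir-150, mir-181a-1 and mir-181b-1 together held between 154750 and 172260 CPM in the WT libraries, lowest in WT replicate 3, and between 122330 and 155380 CPM in those of *Tet2/3* DKO mice. These hairpins went in opposite directions, with mir-142a (-0.93) and mir-150 (-1.28) lower and mir-181a-1 (0.88) and mir-181b-1 (0.68) higher. Of their 8 tested arms 2 were higher and 3 lower, beside 28.2% and 27.4% of all tested mature miRNAs. The other 3 were not called, among them miR-181a-5p (-0.032) and miR-181b-5p (0.19). None of the markers of these lists was at 0 in every library, and the part of other cell types in the levels of miR-155 was not tested. In bulk samples fewer cells of a type and less RNA per cell cannot be told apart.

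**Figure D4:**
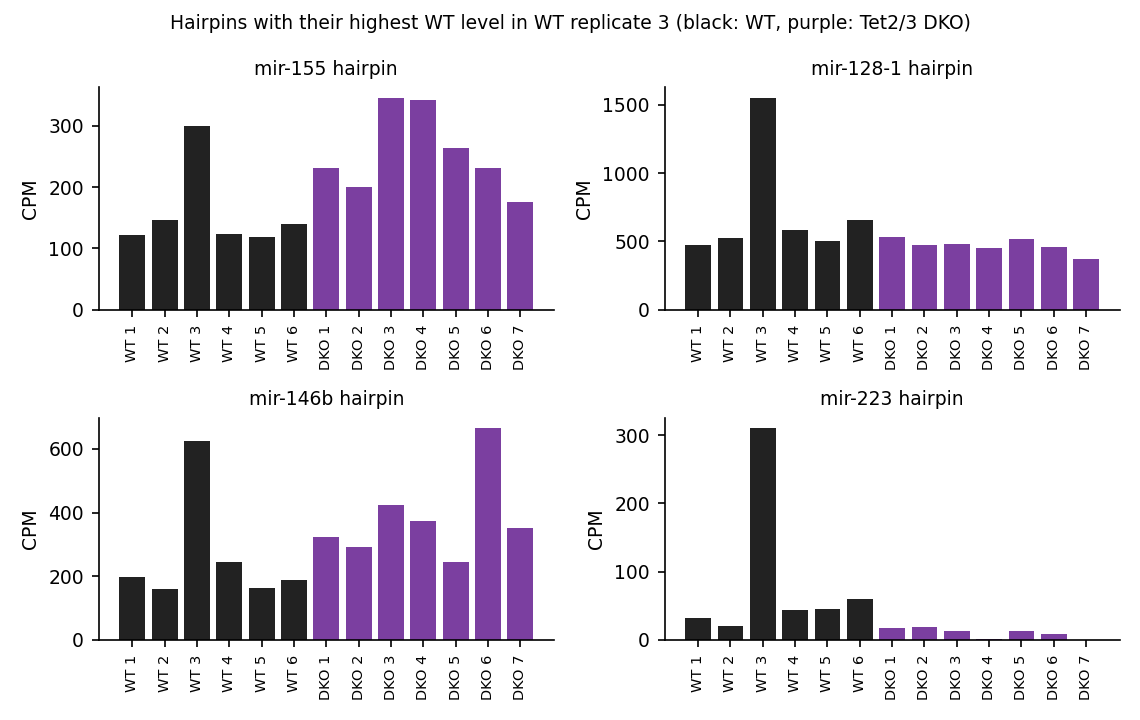
CPM of the hairpins mir-155, mir-128-1, mir-146b and mir-223 in each of the 13 mice, with WT bars black and *Tet2/3* DKO bars purple, each panel with its own axis from 0. All 4 have their highest WT level in WT replicate 3, and mir-155 and mir-146b are higher in *Tet2/3* DKO mice than in most WT mice while mir-223 is lower.

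How do the hairpin and the mature count of one mouse relate? In WT the hairpin's count was between 68.4% and 131% of the count of miR-155-5p (91.4% ± 23.1, SD, n = 6), and in *Tet2/3* DKO between 87.9% and 144% (108% ± 20.05, SD, n = 7). For miR-155 the ratio was high among miRNAs. Over all libraries it was 103%, while the median of 168 other miRNAs whose hairpin and most abundant arm averaged at least 100 counts was 36.0%, and 40 of them had a higher ratio. The mean log2 ratio was -0.16 in WT and 0.097 in *Tet2/3* DKO, a difference of 0.26 that was within the spread between mice (exact two-sided permutation test over all 1716 divisions of the mice, p = 0.147). Without WT replicate 6, whose ratio was the highest in WT, the difference was 0.37 (exact permutation p = 0.0366). The larger fold change of the hairpin was therefore not shown to differ from that of the arm with all mice. Whether a read was counted in both tables is not given in the sources used here.

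Within *Tet2/3* DKO mice the hairpin and the arm moved together. Pearson's r of log2 CPM was 0.92 (n = 7, exact permutation p = 0.00298, 0.00595 after Benjamini-Hochberg adjustment over the 2 genotypes) and Spearman's rho 0.89 (exact permutation p = 0.0123, adjusted 0.0246). Without replicates 3 and 4, the mice farthest from the median hairpin level, r was 0.76. Within WT r was 0.81 and rho 0.49 (n = 6, exact permutation p = 0.0556 and 0.356, adjusted 0.0556 and 0.356). That relation rests on few mice, since r was 0.26 without WT replicate 3 and -0.65 without replicates 2 and 3, the farthest from the median. The other WT mice differed little in the hairpin, with an SD of 0.13 in log2 CPM.

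**Figure D5:**
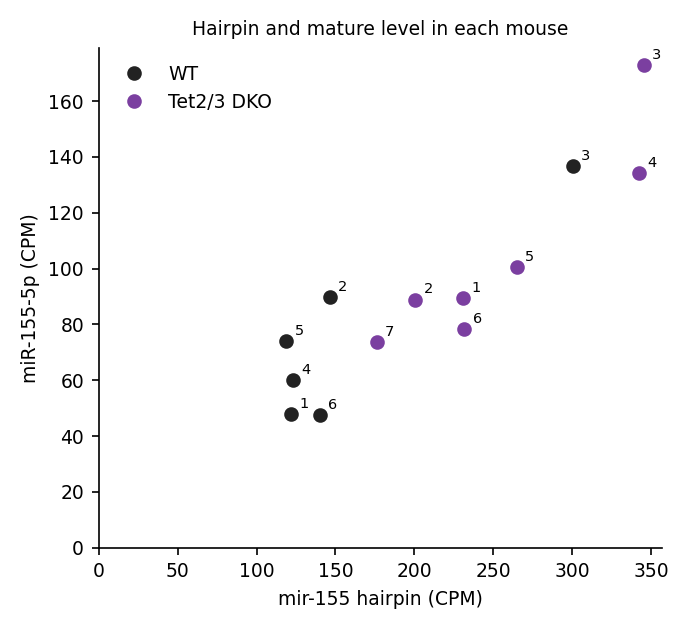
CPM of mature miR-155-5p against CPM of the mir-155 hairpin, 1 point per mouse with its replicate number. The *Tet2/3* DKO mice spread along a line (r = 0.92 on the log2 scale), and among the WT mice replicate 3 lies apart from the other 5.

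The hairpins most alike to mir-155 in their deviations from the genotype means over the 13 libraries were mir-128-1 (Pearson's r = 0.79, rho 0.62), mir-128-2 (r = 0.79, rho 0.61) and mir-30b (r = 0.66, rho 0.49), of 324 hairpins compared, whose median r was 0.010. Both copies of mir-128 were high in WT replicate 3. There mir-128-1 stood at 1548 CPM against 477 to 660 CPM in the other WT mice, and mir-128-2 at 887 CPM against 168 to 271 CPM. The likeness to mir-155 came largely from that mouse, as r without it was 0.37, 0.35 and 0.34 for the 3 hairpins. Between genotypes mir-128-1 went the other way, with a log2 fold change of -0.61 (adjusted p = 0.0400, edgeR), a call that rested on the same mouse, since without it the value was -0.18 (edgeR adjusted p = 0.211). The sequences of the 2 copies of mir-128 were not compared here, and whether the counting exchanges reads between them was not tested. The mature miRNAs most alike to miR-155-5p were miR-872-3p (r = 0.69, rho 0.67), miR-466n-3p (r = 0.69, rho 0.51) and miR-181d-3p (r = 0.62, rho 0.57) of 388. Their means were between 7.91 and 33.9 CPM, and r without WT replicate 3 was 0.68, 0.44 and 0.40. These are the highest of many correlations over libraries that share their depth with all features, and no p-value is attached.

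Among miRNAs that T cell activation or NF-κB induces, 3 of 7 tested hairpins were higher in *Tet2/3* DKO and 0 were lower, against 32.6% of all tested hairpins called higher. The list was chosen with earlier results of these data known, so these shares and its median log2 fold change of 0.53, beside 0.021 over all, are a description. The higher ones were mir-21a (0.77), mir-132 (0.67) and mir-212 (1.59), and the last pair shares one transcript that CREB induces. All 3 were called higher under the 4 scalings, with upper-quartile scaling mir-221 was called lower (-0.81), and with library size only mir-146b was called higher (0.84). mir-146b, a product of NF-κB signalling, had a log2 fold change of 0.53 (adjusted p = 0.191, edgeR) and, like mir-155, its highest WT level in WT replicate 3 (626 CPM against at most 246 CPM in the other WT mice). Without that mouse mir-146b was called higher (1.04, edgeR adjusted p = 0.000545), and 4 of the 7 hairpins were, beside 116 of 360 hairpins over all. mir-146a, the NF-κB-induced brake that is often set against miR-155, was at 7438 ± 1378 CPM (SD, n = 6) in WT and 5932 ± 2547 CPM (SD, n = 7) in *Tet2/3* DKO. Its log2 fold change was -0.33 (edgeR adjusted p = 0.285) and 0.013 with library size only. Of the mature arms of this list, 3 of 9 tested were higher (miR-21a-5p, miR-132-3p and miR-212-3p) and 1, miR-221-3p, was lower, against 28.2% called higher and 27.4% called lower over all. The call of miR-21a-5p was lost with upper-quartile scaling (0.11) and that of miR-221-3p with library size only (-0.33). With library size only 5 of the 9 arms were called higher, beside 142 of 401 mature miRNAs over all.

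Among miRNAs reported to promote IL-17-producing T cells, 4 of 7 tested hairpins (mir-183, mir-301a, mir-21a and mir-17) and 6 of 10 tested mature arms were higher in *Tet2/3* DKO, and 0 were lower in either table. Over all tested features 32.6% of hairpins and 28.2% of mature miRNAs were higher, and 27.1% and 27.4% were lower. The median log2 fold change was 0.74 for hairpins and 0.61 for arms, beside 0.021 and -0.0080 over all. This list was chosen with earlier results of these data known and shares mir-21a with the activation list. Arms of the same hairpin or cluster are not independent either, so these shares and medians are a description. The higher arms were miR-17-5p (0.89) of the miR-17-92 cluster, miR-301a-3p (0.72), miR-183-5p (0.91) and miR-182-5p (0.80) of one cluster, miR-326-3p (0.70) and miR-21a-5p (0.27). With upper-quartile scaling 3 hairpins and 4 arms were called higher, beside 93 of 350 hairpins and 89 of 401 mature miRNAs over all. With library size only it was 5 hairpins and 10 arms, beside 151 of 350 and 142 of 401 over all. Without WT replicate 3 it was 3 hairpins and 4 arms, beside 116 of 360 and 106 of 412 over all. The calls of mir-183, miR-326-3p and miR-21a-5p were then lost. miR-155-5p, at 0.46, lay below the median of these arms. Of the miRNAs reported to restrain such cells, mir-210 (1.22) and mir-20b (0.25) were also higher and mir-146a was not called, and with upper-quartile scaling 0 of the 3 hairpins were called. Of the arms of that list 2 of 4 tested were higher, miR-210-3p (1.32) and miR-20b-5p (0.39), and with upper-quartile scaling miR-210-3p was still called (1.18, edgeR adjusted p = 0.0199) and miR-20b-5p was not (0.22).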

How the data were processed

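Small RNA-seq libraries of thymic iNKT cells, each from a separate mouse (6 WT, 7 *Tet2/3* DKO), were analysed. The authors processed the reads with nf-core/smrnaseq at default parameters and deposited raw counts in 2 tables, for hairpins and for mature miRNAs. The aligner, the miRNA database release and the treatment of reads with several matches are not given in the sources used here. The submitters' processing notes name mm10. The genotype and number in each column's name gave its mouse (0 columns were left unused).

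With edgeR 4.0.16, features were filtered by filterByExpr (at least 10 counts in enough libraries and 15 in total), scaled by TMM and compared by the robust quasi-likelihood test with genotype only, with Benjamini-Hochberg adjustment over each table and a threshold of 0.05. SEs are the log2 fold change divided by the square root of F. Log2 CPM used a prior count of 2 and log2 ratios a pseudocount of 0.5. R 4.3.3, limma 3.58.1, DESeq2 1.42.0, Python 3.11.15 and matplotlib 3.10.9 were used. The fits were also run on simulated counts with equal dispersion for all features, and changes either absent or larger than that of miR-155. Those runs do not show how well a change of the size of miR-155's is found.

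miR-155 and the lists were chosen with earlier results of these data known. The text names miR-155, the members of the lists and of the marker lists, and the 3 features most correlated with each member. The fit of those other miRNAs without WT replicate 3 was chosen after seeing the data. Replicate numbers were not taken to pair the mice.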

Additional observations from a re-analysis of the deposited data

Results flagged for a closer look

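Values of the named miRNAs were checked within each genotype for a mouse far from the others of its group. Of 92 such groups, 9 held one, and about 4.6 would by chance if the groups were independent and picked without regard to such mice. They were not so picked. Both copies of mir-128 were named for their likeness to mir-155, which came largely from WT replicate 3. The number found therefore cannot be set against the number by chance. In WT replicate 3, the highest WT level stood apart for mir-155 (8.24 log2 CPM, next 7.21), for mir-146b (9.29, next 7.95), for mir-128-1 (10.6, next 9.37) and for mir-128-2 (9.80, next 8.09). The level of mature miR-155-5p in the same mouse was the highest of WT but was not far enough from the next to be listed here. In WT replicate 1, the shallowest library, the lowest WT level stood apart for mir-132 (6.72, next 7.58) and miR-20b-5p (10.4, next 10.8). In WT replicate 5 it stood apart for miR-183-5p (2.26, next 3.47) and miR-17-5p (12.1, next 12.5). Among the *Tet2/3* DKO mice, replicate 3, the mouse with the highest miR-155, had the lowest level of mir-222 (3.15, next 4.33). No cause was tested for these values.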

How the results depend on the processing

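The log2 fold change was above 0 in all 23 alternatives for the hairpin (0.43 to 1.02) and for miR-155-5p (0.25 to 0.70). Of the 10 alternatives that kept all groups of mice, 8 kept the hairpin's call, which was lost with upper-quartile scaling (0.44) and with log2 library size as a covariate (0.43). miR-155-5p gained a call with library size only (0.70), with every miRNA of at least 1 count (0.54) and with replicate number as a block (0.50). Without each mouse in turn the hairpin was between 0.59 and 1.02 and always called, and miR-155-5p was between 0.27 and 0.64 and called only without WT replicate 3. The ratio of hairpin to 5p was between 0.19 and 0.37 without each mouse. DESeq2 gave the hairpin 0.62 (adjusted p = 0.0241) and the arm 0.50 (adjusted p = 0.127). Each of these alternatives left the number of called hairpins (180 to 288, 209 as reported) and of called mature miRNAs (167 to 272, 223 as reported) within 1.5 times. The share called changed more, because the number tested differed. With every miRNA of at least 1 count, 288 of 1115 hairpins and 272 of 1286 mature miRNAs were called. DESeq2 called 273 of 725 and 256 of 685, and the reported fit 209 of 350 and 223 of 401. The hairpins called higher and lower were 114 and 95 with TMM, 151 and 56 with library size only and 93 and 137 with upper-quartile scaling, and the mature miRNAs 113 and 110, 142 and 77, and 89 and 132. With the replicate block, where *Tet2/3* DKO replicate 7 has no partner and adds nothing to the difference, the hairpin was at 0.81 and the ratio at 0.30 (exact sign permutation p = 0.0625). Deviations of mice with the same number correlated between -0.050 and 0.34 for hairpins and between 0.012 and 0.34 for mature miRNAs. Of the 6 WT mice, 3 and 2 correlated best with their own number. Whether the numbers pair some of the mice was not tested, and the reported fit did not treat them as pairs. The alternatives planned for the 3p arm, and a ratio to the sum of both arms, were not run because that arm was not analysed here. The lowest counts, 53 for the hairpin and 51 for miR-155-5p in WT replicate 1, limit the precision of single mice.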
